A study of Homo sapiens with 9 samples.

Results

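Cytosolic ribosomal protein genes encode the protein parts of the ribosome that works in the cytoplasm, and their mRNA levels were read here across control, senescent and knockdown fibroblasts. Members were rows of the deposited gene table whose symbol begins with RPL or RPS and goes on as a number with at most a letter and further digits, together with RPLP0, RPLP1, RPLP2 and RPSA. RPS27L and the Y-linked copy of RPS4X were left out. The rule took 91 of 13745 genes. Of these, 76 encode a protein of the standard ribosome and are called core members below, 30 of the 40S subunit and 46 of the 60S subunit. Another 4 are paralogs of a standard gene (RPL7L1, RPL22L1, RPL26L1 and RPL39L), and 11 carry pseudogene symbols such as RPS19P3. All core members and paralogs and 7 of the 11 pseudogene symbols passed the filter on low values (a highest value of at least 40 in some library), so that 87 members were tested. RPL3L and RPL10L were not analysed here.

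PolyA RNA was sequenced in 9 libraries of BJ cells, a line of human fibroblasts made immortal by telomerase. In them RASG12V, an oncogenic form of RAS, is switched on with 4-hydroxytamoxifen (4-OHT) and drives oncogene-induced senescence, a lasting arrest of proliferation. The control was 1 library of cells with the non-targeting hairpin 500. The senescent group was 2 libraries with activated RASG12V, with the non-targeting hairpins 500 and 507. In the lncRNA-OIS1 knockdown group, 4 libraries with activated RASG12V each carried a different hairpin against lncRNA-OIS1, a long non-coding RNA (32-2 in replicate 1, 32-3 in replicate 2, 32-8 in replicate 3 and 32-9 in replicate 4). A single library had activated RASG12V with knockdown of p53, and another had it with knockdown of BRD7, a bromodomain protein. According to the labels every library, the control included, had 14 days of 4-OHT, while the series' design text calls the control cells untreated. The libraries of a replicated group each carried a different hairpin, so the spread between them mixes differences between hairpins with any technical spread. No hairpin was repeated within a group, so these sources of spread cannot be told apart.

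Values are normalised read counts. The columns hold identical sets of values, each adding up to 14916466.5 and none under a floor of 20, so a value reflects a gene's rank within its library, a change in the total amount of ribosomal protein mRNA per cell could not be seen, and the depth is unknown. In such bulk samples, fewer cells of a type and less RNA per cell cannot be told apart. Of 8 fibroblast markers, 5 fell in the senescent libraries, where 7.10% of all genes fell. VIM was higher there, at 39745.4 in the control against 55498.9 and 48419.6 in the senescent pair. S100A4 was higher as well, at 6416.8 against 11723.8 and 10996.7, and THY1 was lower, with none of these called. The summed level of the 8 was 416022.2 in the control, 119066.7 to 136705.0 in the senescent libraries and 151706.8 to 199976.6 over all knockdown libraries. The defining collagens stayed well above the floor, COL1A1 going from 110361.0 in the control to 9913.6 and 8350.8. Of 5 epithelial markers 3 were in the table, with KRT19 at the floor in the control and both senescent libraries and none called. Of 4 leukocyte markers 2 were, with PTPRC at 156.6 in the control library while the other 8 libraries had it at the floor. CD14 moved the opposite way, from 39.9 in the control library to 143.9 in senescent replicate 1 and 115.2 in replicate 2. The rise of CD14 was not called (log2 change 1.69, SE 0.70), while the fall of PTPRC was. The summed epithelial markers were at 3686.7 in the control and at 801.4 to 2105.3 elsewhere, and the summed leukocyte markers at 196.5 and at 45.1 to 163.9. The part of these shifts in the results below was not tested.

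A ribosome is built from a small 40S subunit, which decodes the mRNA, and a large 60S subunit, which joins amino acids. Each subunit takes up its proteins in the nucleolus while ribosomal RNA is cut and folded, and cells make the proteins in matched amounts. Ribosomal protein mRNAs are among the most abundant mRNAs of growing cells, and most begin with a 5′ terminal oligopyrimidine (TOP) tract, a C at the cap followed by a run of C and T, through which the mTOR pathway and LARP1 set their translation. When assembly is disturbed, RPL5 and RPL11 bind MDM2 together with 5S ribosomal RNA and stabilise p53, a regulator of senescence.

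The start of the mRNA was read for the core members listed in the RefSeq promoter table (GRCh38.p14), which matched 62 of 76. A TOP tract was counted where the annotated start was a C followed by at least 4 further C or T on the transcript's strand. Of the 62 genes, 46 had it (74.2%), against 1404 of 27305 genes in the whole table (5.14%) and 637 of the 8842 other tested genes with a listed start (7.20%). Within 10 bases of the annotated start, the same tract was found for 91.9% of the 62 and 38.4% of all genes. The starts below are shown for members that the results turn on, as 15 bases before the start and the first 15 bases of the first exon, 5′ to 3′ on the transcript's strand, with the tract in capitals.
RPL35A (chr3:197950175-197950204, plus strand): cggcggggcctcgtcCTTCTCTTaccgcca
RPL29 (chr3:51995881-51995910, minus strand): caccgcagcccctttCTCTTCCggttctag
RPS19 (chr19:41860240-41860269, plus strand): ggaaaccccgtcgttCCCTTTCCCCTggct
RPS10 (chr6:34426055-34426084, minus strand): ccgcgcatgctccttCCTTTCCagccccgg
RPS14 (chr5:150449725-150449754, minus strand): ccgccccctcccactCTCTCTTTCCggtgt
RPL13A (chr19:49487593-49487622, plus strand): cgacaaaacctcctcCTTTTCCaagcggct
RPS6 (chr9:19380222-19380251, minus strand): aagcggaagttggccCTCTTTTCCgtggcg
RPLP0 (chr12:120201097-120201126, minus strand): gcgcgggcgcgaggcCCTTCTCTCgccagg
RPL22 (chr1:6199581-6199610, minus strand): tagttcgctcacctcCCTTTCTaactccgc
RPL22L1 (chr3:170870181-170870210, minus strand): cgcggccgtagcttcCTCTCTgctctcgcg
RPL17 (chr18:49492451-49492480, minus strand): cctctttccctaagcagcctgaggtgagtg
RPL7L1 (chr6:42879601-42879630, plus strand): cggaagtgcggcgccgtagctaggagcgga
The first 10 carry a tract of 6 to 11 bases that opens at the start itself. RPL17 and the paralog RPL7L1 have none at the annotated start, which says only that these letters are not at that position.

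Core members as a class were higher in the senescent libraries than in every other library. Their summed values made up 2.69% of the library total in the control, 3.49% and 3.64% for the senescent pair (3.56% ± 0.106, SD, n = 2), 2.83%, 2.92%, 2.82% and 3.22% in the lncRNA-OIS1 knockdown libraries (2.94% ± 0.187, SD, n = 4), 3.26% in the p53 knockdown and 2.79% in the BRD7 knockdown. The 2 senescent libraries lay above all 7 others, and the third lncRNA-OIS1 hairpin and the BRD7 knockdown came nearest to the control. The order did not rest on the most abundant members: without the 5 highest, the share was 2.26% in the control, 2.96% and 3.10% for the senescent pair and 2.36% to 2.76% in the knockdowns. The mean rank of a core member among the 13745 genes, where a lower number is a higher expression, was 998 in the control, 725 and 686 for the senescent pair, 808 to 937 in the lncRNA-OIS1 knockdown libraries, 826 in the p53 knockdown and 941 in the BRD7 knockdown. The ratio of summed 60S to summed 40S values stayed between 1.72 and 1.77 in 8 libraries and was 1.64 in lncRNA-OIS1 knockdown replicate 4.

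Set against the mean of the senescent libraries, 75 of 76 core members were lower in the control, 76, 74, 76 and 62 in lncRNA-OIS1 knockdown replicates 1 to 4, 60 in the p53 knockdown and 76 in the BRD7 knockdown. Of all 12481 tested genes, 6467 were lower in the control, 6206 in the p53 knockdown and 6429 in the BRD7 knockdown. This was not counted over all genes for single lncRNA-OIS1 hairpins. The shift was thus spread over the class in most libraries, and was more uneven in replicate 4 and in the p53 knockdown, where 14 and 16 core members lay above the senescent mean.

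In the comparison of senescent with control cells, which asks what RASG12V activation changed, 21 of 87 tested members rose and none fell, of which 20 were core members and 1 was RPL7L1 (limma on log2 values, Benjamini-Hochberg adjusted p under 0.05 over 12481 genes). Over all tested genes 7.95% rose and 7.10% fell. The median log2 change of the core members was 0.45 (range -0.07 to 1.10), against 0.03 over all genes, and 75 of 76 were above the control in both senescent libraries, which was so for 48.1% of all genes. The 40S and 60S proteins contributed alike in count, with 8 of 30 and 12 of 46 rising and medians of 0.42 and 0.47. The 1 core member that lay lower in both (42.8% of all genes did) was RPL10, at 7880.0 in the control against 7243.0 and 7833.6 in the senescent pair (log2 change -0.07, SE 0.11, adjusted p = 0.716).

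**Figure D1:**
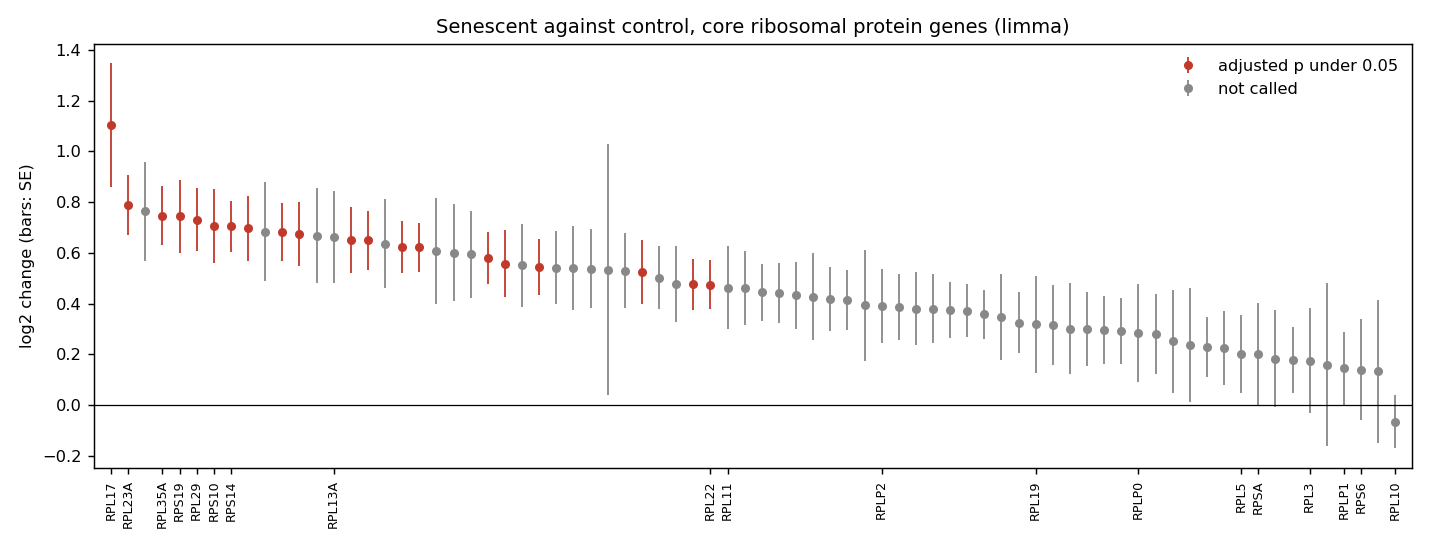
Log2 change of each core ribosomal protein gene in the 2 senescent libraries against the 1 control library, in falling order, with bars for the limma standard error; red marks an adjusted p under 0.05, and a selection of genes is labelled. RPL17 stands at the top with 1.10, most members lie between 0.2 and 0.8, and RPL10 at -0.07 is the only one below 0.

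Among 40S members, RPS14, a protein of the decoding platform whose loss underlies the anaemia of 5q- syndrome, stood at 5735.0 in the control against 9202.4 and 9489.6 in the senescent pair. It rose with the smallest adjusted p of the family (log2 change 0.70, SE 0.10, adjusted p = 0.0144). RPS19, needed for 40S maturation and the gene most often mutated in Diamond-Blackfan anaemia, stood at 6863.0 in the control against 11040.1 and 11961.0 in the senescent pair, and rose by 0.74 (SE 0.14, adjusted p = 0.0286). The senescent values of both genes exceeded those of every other library. RPS10, which sits at the mRNA entry side of the 40S head, went from 3203.0 to 5091.6 and 5364.7, a rise of 0.71 (SE 0.14, adjusted p = 0.0328). RPS26, RPS13, RPS27A (made as a fusion with ubiquitin) and RPS15A were among the other 40S members that rose, by 0.48 to 0.68. RPS6, the target of the S6 kinases, stood at 12051.4 in the control against 13466.6 and 13089.6 in the senescent pair, and did not pass the test (log2 change 0.14, SE 0.20, adjusted p = 0.674). RPSA, which also serves as the laminin receptor precursor, was at 5410.9 in the control against 6064.0 and 6384.1 in the senescent pair, and did not pass either (adjusted p = 0.530).

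Among 60S members, RPL23A, a protein at the exit of the peptide tunnel, had 1144.3 in the control against 1853.0 and 2110.2 in the senescent pair. It rose by 0.79 (SE 0.12, adjusted p = 0.0167). RPL35A, another gene of Diamond-Blackfan anaemia, went from 3560.1 to 5944.0 and 6000.9, a rise of 0.75 (SE 0.12, adjusted p = 0.0179). RPL29 went from 3640.2 to 5765.2 and 6335.7, a rise of 0.73 (SE 0.12, adjusted p = 0.0208). In each of these, both senescent values lay above the single control value by more than they differed from each other. RPL35, RPL34, RPL37A, RPL6, RPL9, RPL21, RPL24 and RPL22 also rose, by 0.47 to 0.70. RPL17 had the largest change, from 80.3 to 173.3 and 171.7 (log2 change 1.10, SE 0.24, adjusted p = 0.0397), but its level was the lowest of the core members per length, 258 per kb of transcript in the senescent mean against a median of 7808, and it shares exons with the annotated read-through gene RPL17-C18orf32, so its value is uncertain. RPL36A and RPS10 have such read-through genes as well, and GENCODE names pseudogenes after 75 of the 76 core members, with a median of 10 per gene, so that reads of near-identical copies could be split or shared in the authors' counting.

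The stalk of the 60S subunit, which recruits the translation GTPases, is made of RPLP0, RPLP1 and RPLP2. RPLP0 stood at 11146.3 in the control against 12902.8 and 14273.3 in the senescent pair, and RPLP1 at 10100.4 and at 10273.4 and 12134.7. RPLP2 stood at 3704.3 and at 4581.8 and 5155.9. All 3 were above the control in both senescent libraries without passing the test, at log2 changes of 0.28, 0.14 and 0.39 and adjusted p of 0.358, 0.531 and 0.124. Of the MDM2-binding pair, RPL5 was at 7690.8 in the control against 8948.8 and 8759.9 in the senescent pair (log2 change 0.20, adjusted p = 0.406). RPL11 was at 8229.4 and at 11193.4 and 11502.7 (log2 change 0.46, adjusted p = 0.113). RPL13A, which also acts in interferon-dependent silencing of translation, reached 16013.9 and 17015.7 against 10422.4 in the control (log2 change 0.66, adjusted p = 0.0623).

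The control was 1 library and the spread came from the senescent pair and the lncRNA-OIS1 hairpins, so the number of calls moved with single libraries: with senescent replicate 1 or 2 left out no member was called higher (background 0.393% and 0.328%), without lncRNA-OIS1 replicates 1, 2 or 3 there were 13, 9 or 14 (background 5.30%, 4.49% and 6.16%), and without replicate 4 there were 51 (background 16.1%). The median log2 change over the tested members kept between 0.40 and 0.50 under all of these and the other settings.

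Core members were also grouped by the start of their mRNA. The median log2 change in senescent against control cells was 0.45 for the 46 core members with a TOP tract at the annotated start, 0.51 for the 16 without and 0.36 for the 14 with no start in the table; no test was made of these differences. In the BRD7 knockdown against the senescent libraries the same medians were -0.40, -0.32 and -0.35, and in the lncRNA-OIS1 knockdown -0.30, -0.29 and -0.24.

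In the lncRNA-OIS1 knockdown libraries, core members stood below the senescent level with a median log2 difference of -0.28 (range -0.61 to 0.01), against -0.02 over all genes. No member was called, and neither was any of the 12481 genes (background 0.0%); 48 of 87 members and 2805 of all genes had an unadjusted p under 0.05. Of the core members, 54 of 76 were below both senescent libraries in all 4 knockdown libraries, which held for 21.5% of all genes, and none was above them in all 4, against 17.1%. The 3 largest differences in a core member were those of RPL23A, RPL34 and RPS29. RPL23A stood at 1352.2, 1275.4, 1303.3 and 1240.6, below both senescent values of 1853.0 and 2110.2 and above the control's 1144.3 (log2 difference -0.61, SE 0.08, adjusted p = 0.0788). RPS14 stood at 6574.4, 6629.1, 6587.0 and 6298.1 (log2 difference -0.52, SE 0.07, adjusted p = 0.0788). RPL22 stood at 3105.6, 3339.6, 3265.4 and 3160.7, on both sides of its control value of 3216.8 (log2 difference -0.47, SE 0.07, adjusted p = 0.0788). In these 3 genes no knockdown library overlapped the senescent pair. RPS6, in contrast, ranged from 11615.8 to 15038.3 around the senescent values of 13466.6 and 13089.6. RPLP0 ranged from 10457.0 to 13977.8, overlapping the senescent values of 12902.8 and 14273.3.

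Without replicate 4, 10 core members fell in the lncRNA-OIS1 knockdown (background 0.673%), among them RPS21, RPL34, RPS10, RPS15A, RPL31, RPS26, RPS14, RPL35A and RPL22, none rose (background 0.641%), and the median over core members was -0.33. With any other library left out no member fell. An exact permutation test of 4 against 2 libraries cannot go below p = 0.0667, so single genes were tested with limma alone. With so few libraries, a member that missed the threshold is not shown to be unchanged. The comparisons of the 3 knockdowns all use the same 2 senescent libraries.

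Replicate 4, with hairpin 32-9, stood apart from the other 3 hairpins within this gene family. The difference of a core member from the mean of the other 3 hairpins exceeded 0.25 on the log2 scale for 30 of 76 genes in replicate 4, against 6, 3 and 6 in replicates 1, 2 and 3. The same count was not made over all genes, so it is not shown to be particular to the family. Leaving replicate 4 out also moved the lncRNA-OIS1 calls over all genes, from 0.0% to 0.641% higher and 0.673% lower. Most core members were higher in replicate 4, with a median of 0.18. RPS15 stood at 1660.4 in replicate 4 and at 776.3 to 808.8 in the others (log2 difference 1.06), RPS2 at 11193.4 and at 6641.0 to 7786.7 (0.65), and RPS3 at 12622.1 and at 8152.6 to 9870.8 (0.53). The 4 lowest core members were all genes of chromosome 17. RPL23 stood at 8101.0 in replicate 4 and at 9489.6 to 11077.6 in the others, RPL27 at 7367.4 and at 9056.4 to 9913.6, RPL19 at 10485.4 and at 12902.8 to 13664.9, and RPL38 at 2969.9 and at 3647.7 to 3845.3, log2 differences of -0.35, -0.34, -0.34 and -0.32. RPL26 and RPL23A, the other core members on chromosome 17, which lie before RPL23, differed by 0.40 and -0.08.

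The chromosome was then read for genes outside the family, a reading chosen after these values were seen. The 367 tested genes on chromosome 17 from RPL23 onward, by RefSeq position, had a median of -0.49 in replicate 4 against the other hairpins, while the 266 before RPL23 had 0.03. No other autosome had a median beyond -0.03 or 0.10 in replicate 4. RPL23, RPL27, RPL19 and RPL38 thus lay low together with the other genes of their segment, and the part of this in the family's values in replicate 4 was not tested.

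In the p53 knockdown library the family lay closer to the senescent level than in the other knockdown groups by median. The p53 knockdown is 1 library, and lncRNA-OIS1 knockdown replicate 4 was similar to it. Core members had a median of -0.18 and 3.22% of the total in replicate 4, against -0.15 and 3.26% in the p53 knockdown. By mean rank replicate 4 was the nearer, at 808 against 826. The core median was -0.15 against the senescent libraries, with 55 of 76 below both of them (45.0% of all genes) and 13 above both (43.4%). Among the tested members 1 rose, the paralog RPL39L, and none fell, where 2.27% of all genes rose and 1.57% fell (3.84% in either direction). RPL5 had the highest difference of the core members, at 11118.0 against 8948.8 and 8759.9 (log2 difference 0.33, SE 0.15, adjusted p = 0.244), the highest RPL5 value of the 9 libraries. RPL11, its partner, was at 10840.2, below the senescent 11193.4 and 11502.7 (log2 difference -0.07, adjusted p = 0.857). RPS6 was likewise highest in the p53 knockdown, at 15400.8 (log2 difference 0.21, adjusted p = 0.555). RPS19 was lowest of the core members by log2 difference, at 7253.4 against 11040.1 and 11961.0, near the control's 6863.0 (log2 difference -0.66, SE 0.14, adjusted p = 0.0643). RPL23A stood at 1283.2 (log2 difference -0.62, SE 0.12, adjusted p = 0.0536) and RPS28 at 1151.4 against 1643.8 and 1930.3 (log2 difference -0.63, SE 0.20, adjusted p = 0.117). With lncRNA-OIS1 replicate 4 out of the fit, 19 members fell (background 8.82%), RPS19, RPL23A and RPS28 among them, and RPL39L was again the only one that rose (background 8.37%).

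In the BRD7 knockdown library all 76 core members were below both senescent libraries, which was so for 45.4% of all genes, and none was above both (40.1% of all genes), with a median log2 difference of -0.38 (range -0.78 to -0.06). None of the 87 members was called, and 48 of them had an unadjusted p under 0.05, as did 1735 of the 12481 genes; over all genes 1 was called (background 0.00801%). RPS28, a small 40S protein beside the mRNA exit, stood at 1040.2, next to its control value of 1048.7 and below the senescent 1643.8 and 1930.3 (log2 difference -0.78, SE 0.20, adjusted p = 0.204). RPL28 stood at 4080.7, the lowest of its 9 values, against 6422.0 and 7162.9 (log2 difference -0.73, SE 0.13, adjusted p = 0.196). RPL5 was nearest to the senescent level, at 8471.4 (log2 difference -0.06, adjusted p = 0.933). The single BRD7 knockdown library has no replicate of its own, so its test rests on the spread of the other groups; without lncRNA-OIS1 replicate 4 no member was called either (background 0.024% higher and 0.0401% lower).

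The 4 paralogs differed among themselves. RPL39L, a copy of RPL39 best known from the testis, stood at 100.2 in the control, 85.8 and 64.0 for the senescent pair, 140.2, 199.6, 133.1 and 192.8 in the lncRNA-OIS1 knockdown, 311.6 in the p53 knockdown and 154.7 in the BRD7 knockdown. All 6 knockdown libraries were above both senescent libraries and above the control. The rise in the p53 knockdown was 2.07 on the log2 scale (SE 0.35, adjusted p = 0.0467), and it was not called in the lncRNA-OIS1 knockdown (log2 difference 1.14, SE 0.25, adjusted p = 0.0881) or the BRD7 knockdown (1.06, SE 0.35, adjusted p = 0.278). The p53 call was lost with either senescent library or any of lncRNA-OIS1 replicates 1 to 3 left out, at adjusted p of 0.068 to 0.279. RPL39 itself went from 4684.3 and 4847.3 in the senescent libraries to 3457.7 in the p53 knockdown (log2 difference -0.46, SE 0.10, adjusted p = 0.0685). Per kb of transcript, RPL39L was 1.44% of RPL39 in the control, 0.836% ± 0.192 in the senescent libraries (SD, n = 2), 2.54% ± 0.603 in the lncRNA-OIS1 knockdown (SD, n = 4), 4.78% in the p53 knockdown and 2.40% in the BRD7 knockdown, a minor form in every library.

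RPL22L1, which can take the place of RPL22, stood at 1086.8 in the control against 1876.8 and 1731.8 in the senescent pair (log2 change 0.73, SE 0.21, adjusted p = 0.0696). It was lowest in the p53 knockdown, at 967.6 (log2 difference -0.90, SE 0.21, adjusted p = 0.0713), a difference that was called only without lncRNA-OIS1 replicate 4. Per kb it was 32.1% of RPL22 in the control, 38.3% ± 2.87 in the senescent libraries (SD, n = 2), 42.1% ± 6.69 in the lncRNA-OIS1 knockdown (SD, n = 4), 27.8% in the p53 knockdown and 46.9% in the BRD7 knockdown. RPL7L1, a relative of RPL7, rose from 2504.4 in the control to 3486.3 and 3611.7 in the senescent libraries (log2 change 0.50, SE 0.11, adjusted p = 0.0396). It stood at 3139.2 to 3608.0 in the knockdowns, while RPL7 was lower in the knockdowns than in the senescent libraries, at 3462.8 to 4113.1 against 4475.3 and 4532.0; neither gene's difference was called. RPL26L1 ranged from 255.6 to 321.1 over the 9 libraries, with 298.3 in the control against 283.3 and 265.2 in the senescent pair, and was called in no comparison. It was 8.48% ± 0.474 of RPL26 per kb in the senescent libraries (SD, n = 2) and 12.1% in the control.

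Members with pseudogene symbols were low and none was called in any comparison. RPL13P12 had the highest level, 310.2 in the control against 461.3 and 596.9 in the senescent pair. RPS19P3 stood at 25.1 in the control, 55.3 and 96.7 for the senescent pair and 36.6 to 67.6 in the knockdowns (log2 change in senescent against control 1.54, SE 0.49, adjusted p = 0.0894), and it was called in that comparison only without lncRNA-OIS1 replicate 4. RPL32P3 had 141.9 in the control, 111.9 and 122.4 for the senescent pair and 60.1 to 85.2 in the 6 knockdown libraries. RPS7P1 was at the floor in the control against 46.9 and 43.9 in the senescent pair. RPL14P1, RPL29P19, RPL35P2 and RPS18P9 never passed 40 and were not tested. These symbols may collect reads of their parent genes.

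Over the 9 libraries most core members varied together. The Pearson correlation of a gene's log2 value with the median of the other core members had a median of 0.85, and 52 of 76 genes were over 0.8; these are descriptions over 9 libraries that share 1 normalisation, without a test. RPS13 (0.99) and RPS25 (0.98) followed the class most closely. RPL10 (0.23), RPL23 (0.44), RPL5 (0.48), RPL19 (0.51) and RPS2 (0.51) followed it least. RPL23 and RPL19 were among the low chromosome 17 members of replicate 4, RPS2 was among the high members there, and RPL5 was the member highest in the p53 knockdown. RPS9 was among the members with the smallest spread over the 9 libraries, with an SD of 0.12 on the log2 scale and values from 3838.4 to 4847.3. Of the core members, RPS15, at 0.38, and RPL17, at 0.37, had the largest spread.

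Other genes of ribosome production were read from lists, beside the 7.95% of all genes that rose and the 7.10% that fell in senescent against control cells. Of 91 ribosome biogenesis factors, which process ribosomal RNA and assemble the subunits, 23 rose in senescent against control cells and none fell (median log2 change 0.50). DDX10, an RNA helicase of small-subunit assembly, went from 348.1 to 1598.6 and 1626.7 (2.21, adjusted p = 0.00484), and LYAR went from 189.9 to 546.8 and 606.3 (1.60, adjusted p = 0.0286). Of 72 tested mitochondrial ribosomal protein genes, which serve a separate ribosome, 16 rose and none fell (median 0.45), led by MRPL36 at 1.96 (adjusted p = 0.00271) and MRPL52 at 1.75 (adjusted p = 0.00323). The medians of these lists in senescent against control cells were close to that of the core members, beside the all-gene median of 0.03. In the knockdowns, the biogenesis factors had medians of -0.11 in the lncRNA-OIS1 knockdown, 0.16 in the p53 knockdown and -0.05 in the BRD7 knockdown, and the mitochondrial ribosomal proteins -0.11, -0.01 and -0.17, where the core members had -0.28, -0.15 and -0.38. The difference between lists was not tested.

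The other lists had few called members, and the counts of the TOP mRNAs, snoRNA host genes and regulators that rose were close to the all-gene share of 7.95%. RNA polymerase I genes, which make the large ribosomal RNA, had 2 of 15 members rise, RRN3 (1.04) and POLR1C (0.99), and 1 fall, PTRF (-1.02), a transcript release factor better known as a caveolar protein. Of 22 TOP mRNAs outside the ribosome 2 rose, among them FAU (0.43, adjusted p = 0.0495), which encodes a ribosomal protein fused to a ubiquitin-like protein. The median of that list was 0.21 in senescent against control cells and -0.16, -0.05 and -0.26 in the lncRNA-OIS1, p53 and BRD7 knockdowns. Of 12 snoRNA host genes 1 rose, SNHG16 (1.10), and their knockdown medians of -0.39, -0.24 and -0.42 were below those of the core members. Among 24 regulators of ribosomal protein mRNAs, EIF4E (1.08) and RPS6KB2 (0.76), which code for the cap-binding protein and an S6 kinase, rose, while SP1 (-0.93) and RHEB (-0.75), the GTPase that activates mTOR, fell. RHEB rose in the p53 knockdown (0.89, adjusted p = 0.0467), where 2.27% of all genes rose. Of 15 chaperones and 5S particle regulators, RPF2 (1.38) and BCCIP (0.89) rose in senescent against control cells. Of 28 initiation factors 3 rose, EIF2B3 (1.35), EIF4E and EIF3M (0.56), and in the p53 knockdown EIF5 rose (0.70, adjusted p = 0.0479). No gene of these lists was called in the lncRNA-OIS1 or BRD7 knockdown.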

How the data were processed

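PolyA RNA of 9 BJ libraries was sequenced after TruSeq preparation, per the labels' protocols. The submitters' processing notes name TopHat2, HTSeq and hg19, with roles and versions not given in the sources used here. The deposited table gives a signal per gene and library, read counts that the authors had quantile-normalised and floored, as far as the table's name and its equal columns show. It was used as deposited: 1375 of 13745 genes sit at the floor of 20 in each library, and no counting error can be derived.

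Log2 values, with no pseudocount, were fitted with limma 3.58.1 in R 4.3.3 for 12481 genes whose highest value was at least 40. All 9 libraries entered 1 model of 5 groups with 4 residual degrees of freedom and a variance trend. A lone library was taken to vary as the replicated groups do. Tests were two-sided with Benjamini-Hochberg adjustment over all tested genes, called under 0.05. The fit was tested on simulated data. Means are of linear values.

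Members and lists were chosen with earlier results of these data known. Named genes were the called or most changed members of each comparison, paralog pairs, 5S particle, stalk and disease genes, and the extremes of level, spread and correlation; RPS15, RPS2, RPS3, RPL23, RPL27, RPL38 and RPL26 in replicate 4, the BRD7 and p53 knockdown genes beyond the rule, and list members called without replicate 4 were named after their values were seen. Some genes that entered the fits and counts are not reported here. Transcript lengths came from GENCODE v29, and gene starts from RefSeq. The isoform was chosen by principal level, then by transcript support level, and by shortest length only among those that were equal. Some lengths taken were long, such as 7686 bases for RPL37, so values per kb depend on the isoform chosen. The fit was repeated with no filter, with a filter on the mean (80 or more), with pseudocounts (10, 50), after median-of-ratios scaling and with no variance trend. It was also repeated with senescent and lncRNA-OIS1 libraries alone, and with each replicate left out. Core members alone were a summary of the same fit, without a new fit.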

Additional observations from a re-analysis of the deposited data

Results flagged for a closer look

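Within the 4 lncRNA-OIS1 knockdown libraries, the lowest or highest library of 4 members lay further from the other 3 than Dixon's 95% limit (the gap to the nearest library over the whole range) allows; chance flags about 1 in 20 groups, and 39 were looked at. RPS10 had a ratio of 0.891, with 4087.0 in replicate 4 against 3386.2 to 3462.8 in the others. RPS14 had 0.835, with 6298.1 in replicate 4 against 6574.4 to 6629.1. RPS19 had 0.896, with 9169.4 in replicate 3 against 7808.4 to 7949.9. RPL13P5 had 0.859, with 49.6 in replicate 2 against 35.4 to 37.4, close to the floor of 20.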

How the results depend on the processing

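Of the alternatives, the median log2 change over the members kept its sign in all 4 comparisons, from 0.40 to 0.50 in senescent against control and from -0.33 to -0.26, -0.17 to -0.12 and -0.41 to -0.35 in the lncRNA-OIS1, p53 and BRD7 knockdowns. Counts of calls were less stable. With 1 replicate left out, the members that rose in senescent against control numbered 0 to 51, those that fell in the lncRNA-OIS1 knockdown 0 to 10, those that fell in the p53 knockdown 0 to 19, and those that rose there 0 to 1. The last count was 0 without the variance trend; it was also 0 with core members only, which follows from RPL39L being a paralog and says nothing of the call. With no filter on low values, 1, 3 and 2 members were called lower in senescent against control, the lncRNA-OIS1 knockdown and the p53 knockdown. Over all genes the shares called lower were 7.41%, 0.255% and 1.74%. That fit also took in RPL14P1, RPL29P19, RPL35P2 and RPS18P9, which the filter had left out and whose values lay at or near the floor. The cause of these calls was not tested. Single genes near 0 reached 0 or changed sign with 1 replicate left out, with these ranges: in the lncRNA-OIS1 knockdown RPL13P5 from -0.098 to 0.065, RPL26L1 from -0.0063 to 0.10 and RPS6 from -0.10 to 0.024, in the p53 knockdown RPLP0 from 0 to 0.15, RPL7L1 from -0.015 to 0.036 and RPLP1 from -0.14 to 0.10, and in the BRD7 knockdown RPL7L1 from -0.0015 to 0.050 and RPL13P5 from -0.074 to 0. Same-numbered deviations had correlations of -0.07 and -0.10, which gave no sign that replicate numbers pair the libraries. The deviations of the senescent pair mirror each other, so these are not separate checks and cannot exclude a pairing. A fit with the number as a replicate block, on numbers 1 and 2 of the senescent and lncRNA-OIS1 groups, called 0 members with a median of -0.32, and the same 4 libraries without the block, a fit added after the data were seen, also called 0, with a median of -0.32. Depth could not be recovered, so no limit from counting can be given.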
